A study of Mus musculus with 9 samples.

Results

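Complement genes were followed in RNA sequencing of mouse macrophages differentiated in culture from bone marrow cells. The 8 genes were taken by name from the complement components and receptors in the counts table, among 22165 gene rows in all. They comprise the C1q chain genes C1qa, C1qb and C1qc, the central component C3, the alternative-pathway genes Cfb and Cfp, and the anaphylatoxin receptors C3ar1 and C5ar1. Cfb was chosen by its measured level, which had been seen to differ strongly between libraries, so its values are given as a description with no test. All 8 passed the filter on low counts, as did 10781 genes in all.

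The cells came from C57BL/6N mice aged 6 to 16 weeks, and all 9 libraries were made from cells that had been given LPS (lipopolysaccharide, a bacterial surface molecule that macrophages sense through TLR4), at a dose of 100 ng/mL over 24 h. By their titles, 3 libraries were wild type with LPS (WT) and 3 were Irg1-/- with LPS (KO). The other 3 were Irg1-/- cells that had, besides LPS, been given itaconate at 1 mM from 4 h into the LPS exposure (KO with itaconate). Irg1, whose current symbol is Acod1, codes for the mitochondrial enzyme of itaconate synthesis, and the series asked how itaconate acts on macrophage activation. No group lacked LPS. The labels say neither which part of Irg1 was deleted nor whether replicates came from separate mice or were pooled, so p-values rest on a spread between libraries that may be technical.

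Complement is a set of plasma and membrane proteins that tag microbes and dying cells for removal. The classical pathway starts when C1q binds antibody or other ligands. All pathways meet at C3, whose cleavage yields an opsonin, C3b, and a small signalling peptide, C3a. In the alternative pathway, factor B (Cfb) joins C3b to form the convertase that cleaves more C3, and properdin (Cfp) stabilises it. C3a and C5a act on macrophages and other leukocytes through the receptors encoded by C3ar1 and C5ar1. Although the liver supplies most complement of the blood, macrophages are a main source of C1q and of properdin, and inflammatory stimuli raise C3 and factor B in them.

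Gene reads per library ranged from 7361671 to 20430359, and levels are given as CPM, the read count scaled to the library's total gene reads and corrected by edgeR's trimmed mean of M-values (TMM) factors. Acod1 went against the labels of 4 libraries: it lay at 9.14 and 11.3 CPM in the libraries labelled WT replicates 2 and 1, and at 4421 and 6421 CPM in those labelled KO replicate 3 and KO with itaconate replicate 3. Every group and library name below is therefore that of the label. Whether the Acod1 reads cover the deleted part is not stated, and values for the C1q genes and Cfb are also given with these 4 libraries left out. The library labelled KO with itaconate replicate 3 also stood apart over all genes: its correlation with the rest averaged 0.909, whereas that of each other library averaged between 0.939 and 0.954. Of all genes tested, 26% were lowest and 19.8% highest in that library, and it held the largest share of reads outside genes, 33.7%. The summed level of 8 macrophage markers was 3675 CPM there and 5983 to 9694 CPM elsewhere. Lyz2 made up much of that sum, at 1339 CPM there and 2789 to 5318 CPM elsewhere. Not every marker was low there: Itgam lay at 982 CPM within its range of 535 to 1360 CPM, and Mertk at 180 CPM lay beside WT replicate 3 at 179 CPM. Neutrophil markers, mainly S100a8 and S100a9, summed to 79.2 CPM there and to 163 to 252 CPM elsewhere. Endothelial markers summed to 17.3 CPM there and to 6.65 to 16 CPM elsewhere. Kdr alone gave 14.1 CPM of the sum there. Cdh5 had 0 reads in that library, and Pecam1 at 3.28 CPM lay within its range of 1.56 to 7.53 CPM. B cell markers summed to at most 1.41 CPM, with Cd79a at 0 reads. T cell, dendritic cell and mast cell markers summed to at most 0.923 CPM in every library, with Cd3e, Cpa3, Fcer1a and Ms4a2 at 0 reads throughout. All 5 fibroblast markers were detected, and their sum lay between 185 and 270 CPM in WT, between 189 and 221 CPM in KO and between 166 and 271 CPM in KO with itaconate.

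The promoters of 6 of the 8 genes were found in a RefSeq table on build GRCm38.p6. Cfb and C1qa had no entry. Bases before the start are shown 5′ to 3′ for C1qb and C1qc, whose levels were the most alike of all pairs across libraries, and for C3, on which the pathways meet. All 3 lie on the minus strand. The stretches are the 250 bases before the RefSeq start for C1qb and C3. In C1qc the GENCODE start lies 151 bases upstream of the RefSeq start, so only the 99 bases of its window before both starts are shown. Capitals mark matches on either strand to the letters GAGGAA, a core of sites for PU.1, the macrophage lineage factor, or to TTGCNNAA, a pattern for C/EBP factors. The stretches lie at chr4:136886201-136886450 for C1qb, chr4:136893066-136893164 for C1qc and chr17:57228137-57228386 for C3.
C1qb: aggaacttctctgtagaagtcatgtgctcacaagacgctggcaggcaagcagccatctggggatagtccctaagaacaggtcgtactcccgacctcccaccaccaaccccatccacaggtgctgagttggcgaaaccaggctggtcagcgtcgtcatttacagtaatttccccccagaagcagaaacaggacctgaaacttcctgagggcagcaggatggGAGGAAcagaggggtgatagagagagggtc
C1qc: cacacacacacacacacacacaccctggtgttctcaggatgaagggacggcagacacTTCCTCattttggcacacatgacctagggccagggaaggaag
C3: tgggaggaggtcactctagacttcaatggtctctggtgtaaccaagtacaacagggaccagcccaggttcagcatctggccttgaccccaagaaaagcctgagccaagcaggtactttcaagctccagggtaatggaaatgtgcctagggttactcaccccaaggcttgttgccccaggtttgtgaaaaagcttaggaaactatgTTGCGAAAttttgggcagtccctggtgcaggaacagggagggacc
The PU.1 letters began 30 bases before the RefSeq start and 43 before the GENCODE start of C1qb. In C1qc they lay on the other strand, 193 bases before the RefSeq start and 42 before the GENCODE start. Of 32851 promoter windows of 250 bases, 23.3% held them. The C/EBP letters began 45 bases before the start in C3, which both annotations share, and 9.56% of the windows held them. No marked match overlapped another. Neither pattern was found in the 250-base windows of Cfp, C3ar1 and C5ar1, the last of which reaches 202 bases into the GENCODE gene, and no window of the 6 genes held the MAF letters TGCTGAC or an ISRE pattern (the interferon-stimulated response element) on either strand, which stood in 3.81% and 2.98% of all windows. A loose NF-κB pattern stood in 45.8% of all windows and is not marked.

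No complement gene passed the edgeR threshold in any of the 3 comparisons, an adjusted p under 0.05 over all 10781 genes. No gene of any kind did, so the background was 0% in each comparison. At an unadjusted p under 0.05 edgeR gave 337 genes (3.13%) for KO against WT, 895 (8.3%) for KO with itaconate against KO and 958 (8.89%) for KO with itaconate against WT. DESeq2 called 1, 12 and 17 of 10770 genes (0.00929%, 0.111% and 0.158%), none of them among the 8. In KO against WT, 1 of the 8, Cfb, had a log2 fold change above 0 and the median was -0.22, against -0.01 over all genes tested. In KO with itaconate against KO, 5 of the 8 were above 0 with a median of 0.17, against -0.02 over all genes. In KO with itaconate against WT, 3 of the 8 were above 0 with a median of -0.23, against -0.01. The comparisons share libraries, so these counts are not independent of each other. For KO against WT, groups did not overlap for 4.85% of all genes upward and 5.76% downward (10.6% in all), and of the 8 for 0 upward and 2 downward. For KO with itaconate against KO the background was 5.61% upward and 5.29% downward (10.9% in all). Of the 8, 1 lay in each direction, C1qa upward and Cfb downward. For KO with itaconate against WT the background was 7.3% upward and 7.25% downward (14.6% in all), and 0 of the 8 separated either way. These tallies and medians include Cfb, which was chosen by its spread, and are given as a description. Cfb is left aside for the test, and of the other 7 genes C1qa alone was under an unadjusted p of 0.05, for KO with itaconate against KO. In such bulk libraries fewer cells of a type and less RNA per cell cannot be told apart.

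**Figure D1:**
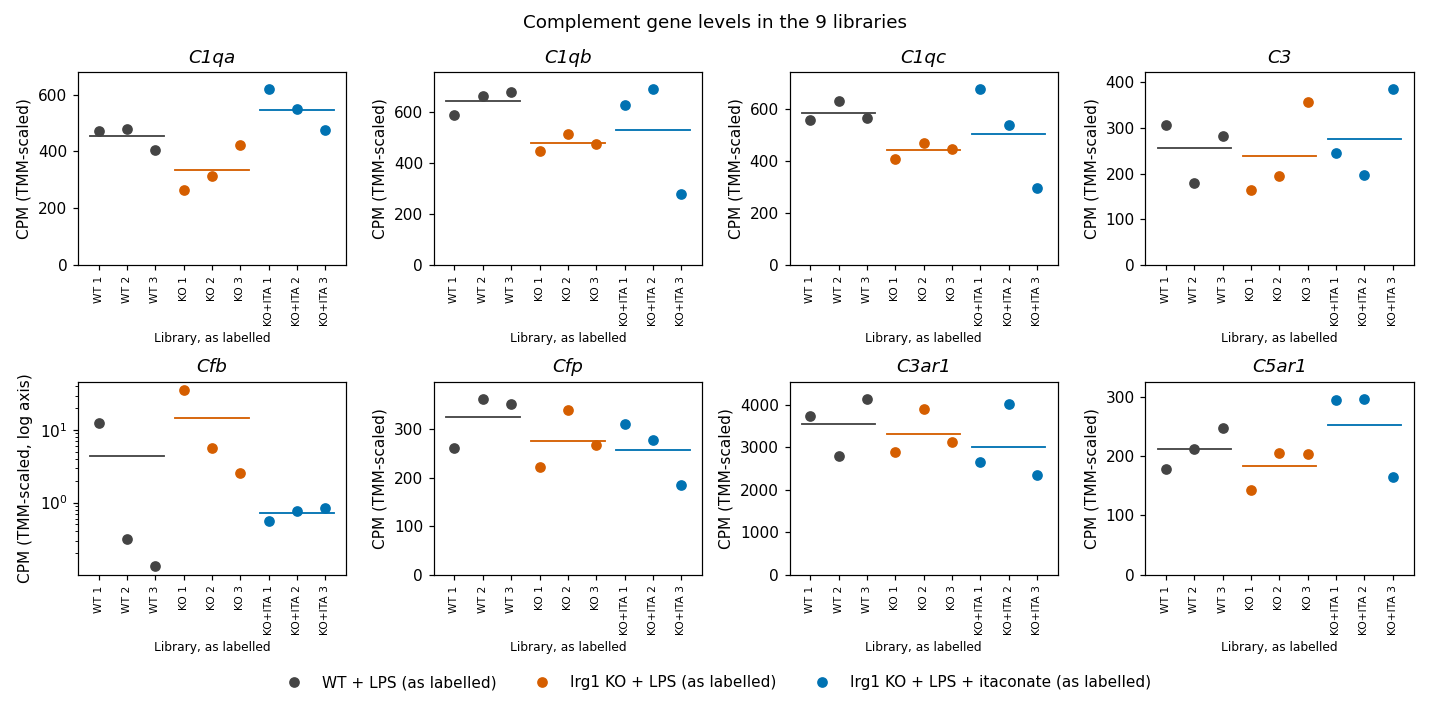
TMM-scaled CPM of the 8 complement genes in each library, by labelled group and replicate; points are libraries and lines are group means, on a linear axis from 0 except for Cfb, whose axis is logarithmic. Cfb runs from 0.134 to 35.4 CPM while the other 7 genes stay within a 2.48-fold range. The library labelled KO with itaconate replicate 3 is the lowest for C1qb, C1qc, Cfp and C3ar1. It was also the lowest for 26% of all genes tested and the highest for 19.8%.

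C1qa, C1qb and C1qc encode the A, B and C chains that assemble into C1q, the recognition molecule of the classical pathway. The 3 genes lie side by side on the minus strand of chromosome 4 in GRCm38, C1qb (ENSMUSG00000036905.8) at chr4:136880129-136886187, C1qc (ENSMUSG00000036896.5) at chr4:136889804-136893065 and C1qa (ENSMUSG00000036887.5) at chr4:136895917-136898803. All 3 were detected in every library, with 2618 to 9110 reads each.

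C1qa lay at 473, 480 and 406 CPM in the libraries labelled WT replicates 1 to 3, at 264, 315 and 423 CPM in those labelled KO, and at 618, 548 and 477 CPM in those labelled KO with itaconate. Every library with itaconate was above every KO library, whereas WT lay between and overlapped both. The means were 453 ± 40.7, 334 ± 81.2 and 548 ± 70.8 CPM (SD, n = 3). The log2 fold change for KO with itaconate against KO was 0.71 ± 0.27 (SE, 95% interval 0.14 to 1.28), with an edgeR adjusted p of 0.523. Such a separation upward was seen for 5.61% of all genes tested, and C1qa was the 1 gene of the 8 to show it. With the pool as a term, which compares the pair of libraries in pool 2, KO replicate 3 and KO with itaconate replicate 1, the value was 0.55. Without the 4 libraries that go against their Acod1 reads it was 0.98 (edgeR adjusted p = 0.138, the lowest over the alternatives, which reached 1). The KO and itaconate libraries then left shared no pool, so pool and itaconate cannot be told apart in that value. For KO against WT the log2 fold change of C1qa was -0.44 ± 0.27 (edgeR adjusted p = 0.995), and -0.63 within pool 1.

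C1qb lay at 588, 663 and 677 CPM in WT, at 445, 514 and 474 CPM in KO, and at 625, 688 and 277 CPM in KO with itaconate. C1qc lay at 558, 630 and 565 CPM in WT, at 409, 468 and 444 CPM in KO, and at 674, 538 and 296 CPM in KO with itaconate. For both genes every KO library was below every WT library, and the itaconate libraries spanned both groups because replicate 3 was the lowest of all 9. The separation downward in KO was seen for 5.76% of all genes tested and for 2 of the 8, these neighbours. The log2 fold change for KO against WT was -0.43 ± 0.32 (95% interval -1.1 to 0.25) for C1qb and -0.41 ± 0.3 (-1.05 to 0.23) for C1qc, each with an edgeR adjusted p of 0.995. Within pool 1, which holds WT replicates 1 to 3 and KO replicates 1 and 2, the values were -0.4 and -0.39, and with the 4 libraries of contrary Acod1 left out they were -0.48 and -0.34. For KO with itaconate against KO they were 0.15 ± 0.32 and 0.19 ± 0.3 (edgeR adjusted p = 0.926 and 0.886), and 0.45 for each without KO with itaconate replicate 3. The part of the low macrophage markers of that library in its C1qb and C1qc levels was not tested.

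The balance of the chains differed in that library. It held 1.72 C1qa reads per C1qb read, whereas the other 8 held 0.594 to 0.989. C1qc reads per C1qb read were 1.07 there, 1.08 in KO with itaconate replicate 1 and 0.782 to 0.951 in the remaining libraries. The ratio of C1qc to C1qb thus kept to the range of the other libraries only through KO with itaconate replicate 1. That of C1qa to C1qb lay outside the range. By level, C1qb and C1qc were each at their lowest there, at 277 and 296 CPM, whereas C1qa at 477 CPM lay within its range. The lowest ratios of C1qa to C1qb were those of KO replicate 1 at 0.594, WT replicate 3 at 0.601 and KO replicate 2 at 0.614. KO replicate 3 at 0.894 overlapped the itaconate group, whose lowest library lay at 0.797. The reads lie mostly near 3′ ends, so such a ratio compares libraries with each other and does not give the amounts of the chains.

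**Figure D2:**
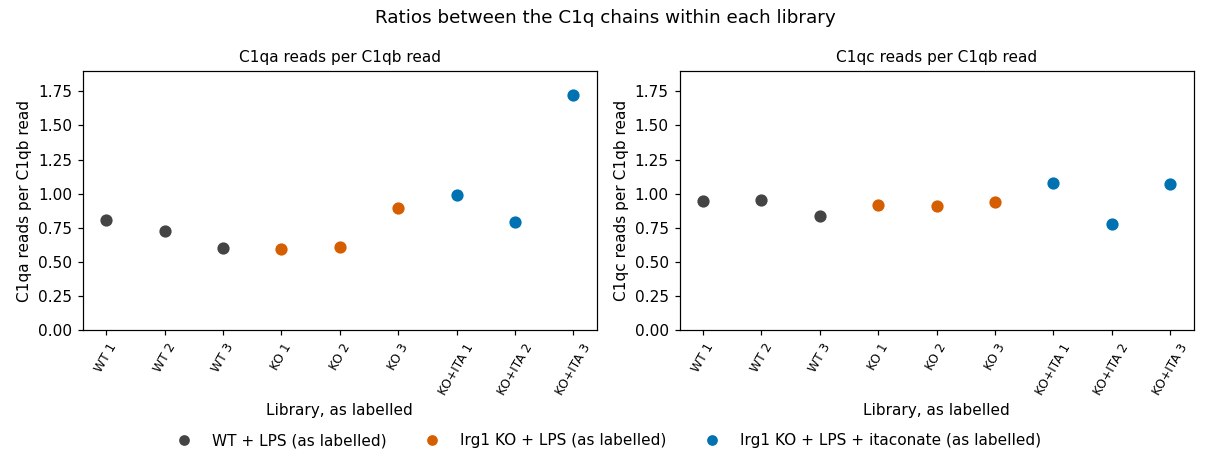
C1qa reads per C1qb read (left) and C1qc reads per C1qb read (right) in each library, by labelled group and replicate; each point is 1 library. On the left KO with itaconate replicate 3 lies at 1.72 above the other 8 at 0.594 to 0.989. On the right it lies at 1.07, just below KO with itaconate replicate 1 at 1.08 and above the rest at 0.782 to 0.951.

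C3 (ENSMUSG00000024164.15) lies on the minus strand of chromosome 17, at chr17:57203970-57228136. It lay at 307, 179 and 284 CPM in WT, at 164, 195 and 356 CPM in KO, and at 245, 197 and 385 CPM in KO with itaconate. Each group held at least 1 library in the lower part of the range and 1 in the upper part, and all groups overlapped. The means were 256 ± 68, 239 ± 103 and 275 ± 97.6 CPM (SD, n = 3), so they differed by less than the SD of any group. The log2 fold changes were -0.1 ± 0.35 for KO against WT, 0.21 ± 0.36 for KO with itaconate against KO and 0.1 ± 0.36 for KO with itaconate against WT (edgeR adjusted p = 0.998, 0.9 and 0.946). Their 95% intervals reached from -0.86 to 0.65, from -0.55 to 0.96 and from -0.65 to 0.86. The highest C3 was in KO with itaconate replicate 3, the library with the least C1qb and C1qc, and the next highest in KO replicate 3. Both also held high Acod1, as did WT replicate 3, which lay at 284 CPM, below WT replicate 1. No direction is drawn for C3, since leaving out single libraries turned the sign of each comparison.

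Cfb (ENSMUSG00000090231.10) lies on the minus strand of chromosome 17, at chr17:34856374-34862518, next to C2 at chr17:34862604-34898265, its classical-pathway counterpart. It gave 106, 4 and 1 reads in the libraries labelled WT replicates 1 to 3, or 12.7, 0.312 and 0.134 CPM. The libraries labelled KO gave 725, 75 and 26 reads, or 35.4, 5.67 and 2.56 CPM. Those labelled KO with itaconate gave 6, 7 and 8 reads, or 0.554, 0.768 and 0.846 CPM. WT held both the lowest library and the second highest, the KO libraries were 3 of the 4 highest, and the itaconate libraries lay close together near the low end. The highest library exceeded the lowest 265-fold, with a 95% counting interval of 47.4 to 10474 because the lowest held 1 read. Without KO replicate 1 the ratio of the highest to the lowest was 95.1.

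On the log2 CPM scale the SD of Cfb over the 9 libraries was 2.31, and 4 of 10781 genes (0.0371%), Cfb included, had an SD at least as large. The SDs of the other 7 genes ran from 0.3 for C3ar1 to 0.45 for C3, and 51.8% to 84.3% of all genes had an SD at least as large as theirs. Cfb was chosen by that spread, which therefore supports nothing further. Without itaconate, the libraries with low Acod1 held 12.7, 0.312, 35.4 and 5.67 CPM of Cfb and those with high Acod1 held 0.134 and 2.56 CPM. With itaconate, the libraries with low Acod1 held 0.554 and 0.768 CPM and the one with high Acod1 held 0.846 CPM. The 3 libraries with the most Cfb thus all had low Acod1, as did WT replicate 2, the library with the second lowest Cfb, and the relation was not tested. C2 had 0 to 13 reads in a library, and 7 in KO replicate 1, where Cfb had 725. The fibroblast markers summed to 221 CPM in KO replicate 1 and 270 CPM in WT replicate 3, the libraries with the most and the least Cfb. They summed to 253 CPM in WT replicate 1 and 185 CPM in WT replicate 2, those with the second most and second least. Their relation to Cfb was not tested.

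By labelled group, Cfb averaged 4.39 ± 7.22 CPM in WT, 14.6 ± 18.1 CPM in KO and 0.723 ± 0.151 CPM in KO with itaconate (SD, n = 3). Every itaconate library was below every KO library, a separation downward seen for 5.29% of all genes tested. WT overlapped both. Cfb was chosen by its spread and passed the filter only through the KO libraries and WT replicate 1, so its separation is no test. As a description, the log2 fold changes were 1.76 ± 1.09 for KO against WT, -4.33 ± 1.28 for KO with itaconate against KO and -2.57 ± 1.27 for KO with itaconate against WT. Single libraries set these sizes: without KO replicate 1 the first was -0.08 and the second -2.5, and without WT replicate 1 the first was 5.87 and the third 1.54. Within pool 1 the KO value against WT was 2.29, and with the pool as a term the itaconate value against KO was -2.18, from KO replicate 3 at 2.56 CPM and KO with itaconate replicate 1 at 0.554 CPM. Without the 4 libraries that go against their Acod1 reads the 3 values were 7.18, -4.98 and 2.2, and the only WT library then left held 1 Cfb read. Otherwise KO and itaconate libraries came from different pools, and pool and treatment cannot be told apart.

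Cfp (ENSMUSG00000001128.7), which encodes properdin, lies on the minus strand of the X chromosome at chrX:20925454-20931555. It lay at 261, 362 and 352 CPM in WT, at 222, 340 and 269 CPM in KO, and at 310, 277 and 185 CPM in KO with itaconate. The groups overlapped, and the order of the means, 325 ± 55.9 in WT, 277 ± 59.3 in KO and 258 ± 64.9 CPM in KO with itaconate (SD, n = 3), differed between neighbours by less than 1 SD. The log2 fold changes were -0.23 ± 0.29, -0.1 ± 0.29 and -0.34 ± 0.29 for KO against WT, itaconate against KO and itaconate against WT (edgeR adjusted p = 0.995, 0.947 and 0.735). The lowest library was KO with itaconate replicate 3.

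C3ar1 (ENSMUSG00000040552.8), on the minus strand at chr6:122847138-122856161, encodes the C3a receptor. It was read 22164 to 59134 times in a library, so counting error was small beside the spread between libraries. Its level was 3721, 2786 and 4129 CPM in WT, 2890, 3894 and 3115 CPM in KO, and 2642, 4017 and 2344 CPM in KO with itaconate. All groups overlapped, and of the 8 genes C3ar1 had the smallest ratio of the highest to the lowest library, 1.76. The log2 fold changes were -0.1 ± 0.28, -0.14 ± 0.28 and -0.24 ± 0.28 in the same order of comparisons (edgeR adjusted p = 0.995, 0.925 and 0.817).

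C5ar1 (ENSMUSG00000049130.5), on the minus strand at chr7:16246743-16259540, encodes the main C5a receptor. It lay at 178, 212 and 247 CPM in WT, at 143, 204 and 203 CPM in KO, and at 295, 296 and 165 CPM in KO with itaconate. Itaconate replicates 1 and 2 were the highest of the 9 and replicate 3 the second lowest, so the groups overlapped. The log2 fold change for KO with itaconate against KO was 0.46 ± 0.3 (95% interval -0.18 to 1.09, edgeR adjusted p = 0.704), and 0.68 without KO with itaconate replicate 3. Against WT it was 0.25 ± 0.3, and KO against WT was -0.21 ± 0.3 (edgeR adjusted p = 0.821 and 0.995). With the pool as a term the itaconate value against KO was 0.54.

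**Figure D3:**
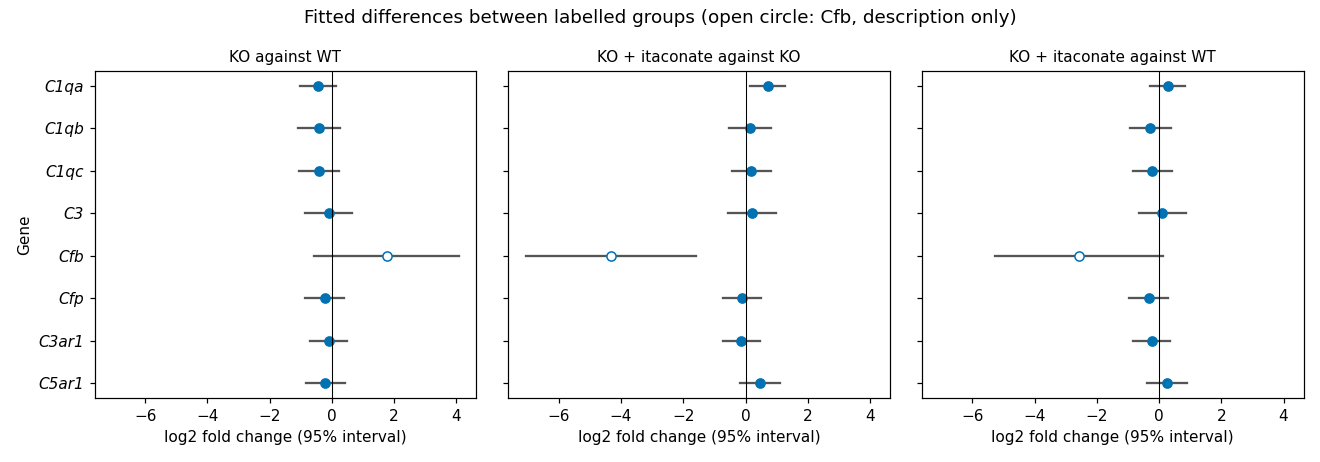
Fitted log2 fold changes of the 8 genes in the 3 comparisons between labelled groups; points are edgeR estimates and lines their 95% intervals, with Cfb as an open circle because it was chosen for its spread. The interval of C1qa for KO with itaconate against KO runs from 0.14 to 1.28 without correction for the number of genes, and its adjusted p over all genes was 0.523.

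Likeness across the 9 libraries was measured by Pearson's r of log2 CPM over the 28 pairs of the 8 genes and is a description, since the libraries share pools and label groups. Of the 28 pairs 16 were positive, and the median r was 0.20. The highest was that of the neighbours C1qb and C1qc, at 0.94 (Spearman's rho 0.77). C1qc ranked among the 0.445% of tested genes most like C1qb. The r was 0.85 without KO with itaconate replicate 3 and 0.75 without the libraries farthest from the median of C1qb, KO with itaconate replicate 3 and KO replicate 1. C1qa had an r of 0.28 with C1qb and 0.42 with C1qc, and 0.74 and 0.82 without KO with itaconate replicate 3. Over all 9 libraries, 25.3% and 16.1% of tested genes were at least as like C1qa as C1qb and C1qc were.

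Cfp had an r of 0.82 with C1qb and 0.81 with C1qc, and 3.67% and 4.17% of tested genes were at least as like Cfp as these. Without KO with itaconate replicate 3 the values were 0.61 and 0.6. C5ar1 had an r of 0.67, 0.69 and 0.68 with C1qa, C1qb and C1qc, and 0.78, 0.75 and 0.67 without that library. Over all 9 libraries, 4.28%, 14.8% and 14.1% of tested genes were at least as like C1qa, C1qb and C1qc as C5ar1 was. The highest r of C3 was 0.35, with C1qa. Cfb had an r of -0.66 with C1qa and -0.69 with C5ar1, and -0.35 with C5ar1 once KO replicate 1 and WT replicate 1, its extremes, were left out. For C1qa that value was -0.56. Without KO with itaconate replicate 3, Cfb had an r of -0.65 with C1qa and -0.82 with C5ar1. With C1qb, C1qc and Cfp its r then moved from -0.29, -0.32 and -0.42 to -0.8, -0.71 and -0.77. With C3 and C3ar1 it then lay at -0.14 and -0.06. Without the extremes of Cfb instead, the values for C1qb, C1qc and Cfp were -0.36, -0.39 and -0.15.

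**Figure D4:**
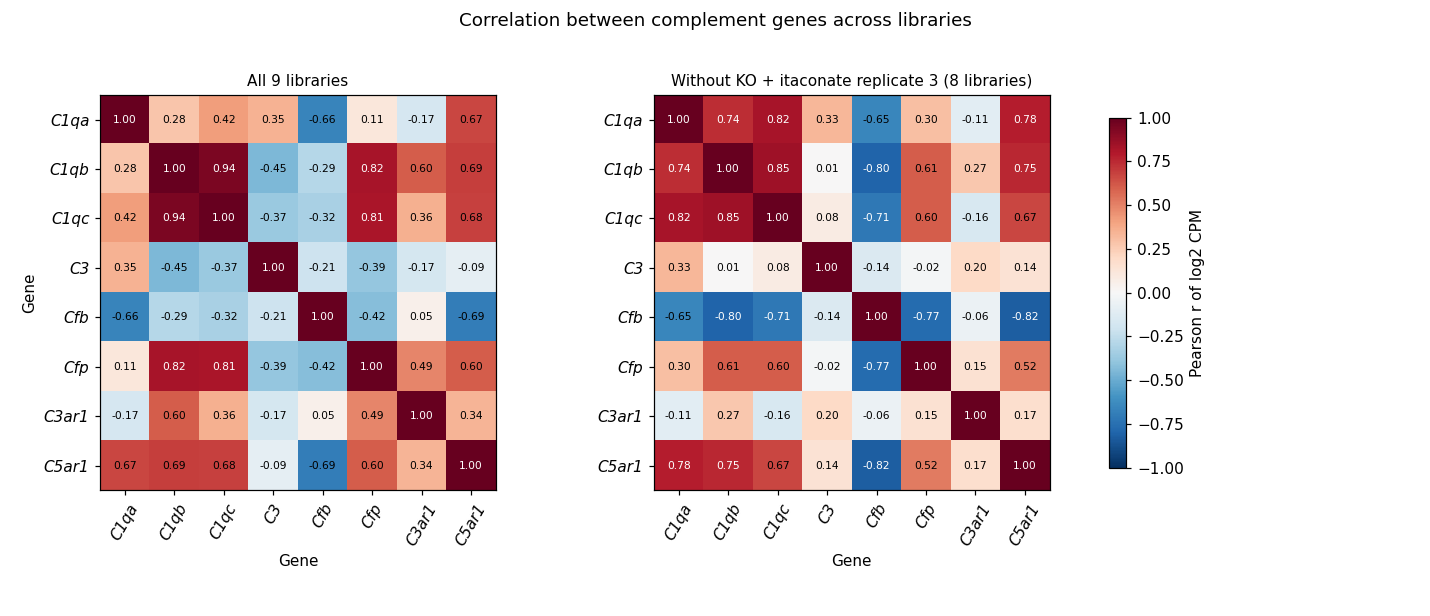
Pearson's r of log2 CPM between the 8 genes, over all 9 libraries (left) and over 8 without KO with itaconate replicate 3 (right); red is positive and blue negative. C1qb and C1qc stand at 0.94 and 0.85, and C1qa with C1qb moves from 0.28 to 0.74 when that library is left out.

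Among 7284 other genes with at least 10 CPM on average, the 5 most like Cfb were Rbm10, Zfp110, Fam219b, Scaper and Prpf3, with r from 0.94 to 0.96. All 5 were highest in KO replicate 1, as Cfb was, and spanned far narrower ranges, Rbm10 from 12.8 to 27.5 CPM and Scaper from 49.9 to 151 CPM. Their r lay between 0.85 and 0.95 without KO replicate 1 and WT replicate 1. The 5 most like C3 were Malt1, a signalling protease of lymphoid and myeloid receptors, Zdhhc18, Panx1, a channel that releases ATP, Slc40a1, the iron exporter ferroportin, and Vma21, with r from 0.91 to 0.93, and from 0.85 to 0.95 without KO with itaconate replicate 3 and KO replicate 1. Those most like C1qa were Dpysl2, Timm50, Prkar1a, Ap2s1 and Lsm5, with r from 0.92 to 0.96, all 5 highest in KO with itaconate replicate 1 and lowest in KO replicate 1. Without KO replicates 1 and 2 their r fell to between 0.69 for Prkar1a and 0.87 for Dpysl2, with Lsm5 at 0.72 and Ap2s1 at 0.73. Picked as the extremes among so many genes over 9 libraries, these carry no test.

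Of 47 other genes of the pathway, 46 were in the table, 15 passed the filter and 16 had 0 reads in every library. None of the 15 passed the edgeR threshold in any comparison, against 0% of all genes. Their median log2 fold changes were -0.16 for KO against WT, -0.01 for KO with itaconate against KO and -0.01 for KO with itaconate against WT. For KO with itaconate against KO, the groups of C5ar2 and Cd46 did not overlap upward (5.61% of all genes tested). Those of C1s1 did not overlap downward (5.29%). For KO with itaconate against WT the groups of Itgb2 and C1s1 did not overlap downward (7.25%). C1s1 passed the filter through WT and KO libraries alone, where it was higher, so its separations are no test. The 8 with the highest mean level were Itgam and Itgb2, which encode the chains of complement receptor 3, Cd93, Cr1l, Cd59a, C1qbp, C5ar2 and Itgax.

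Among the receptors, Itgam ranged from 535 CPM in WT replicate 1 to 1360 CPM in KO replicate 1 and overlapped in all groups. Itgb2 averaged 334 ± 42.5 CPM in WT, 267 ± 49.5 CPM in KO and 199 ± 71.3 CPM in KO with itaconate (SD, n = 3). Its itaconate libraries were all below WT, at a log2 fold change of -0.74 ± 0.31 (edgeR adjusted p = 0.543), where 7.25% of all genes tested separated downward, and its lowest library, at 117 CPM, was KO with itaconate replicate 3. C5ar2, the second C5a receptor, was at 8.65, 7.33 and 10.4 CPM in KO and at 10.7, 17.8 and 20.3 CPM in KO with itaconate. These groups did not overlap, by a narrow margin, and the log2 fold change was 0.88 ± 0.32 (edgeR adjusted p = 0.523). Cd93 ranged from 233 to 546 CPM and Itgax from 3.23 to 11.5 CPM.

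Some membrane proteins shield a cell from its own complement. Cr1l, which encodes the mouse regulator Crry, lay between 57.2 and 92.6 CPM, and Cd59a, an inhibitor of the membrane attack complex, between 21.6 and 32.2 CPM. The itaconate values against KO were -0.01 ± 0.28 for Cr1l and 0.15 ± 0.26 for Cd59a on the log2 scale, with 95% intervals of -0.6 to 0.57 and -0.41 to 0.71. C1qbp, which encodes a mitochondrial protein that can bind C1q, lay between 18.1 and 30.2 CPM in 8 libraries and at 7.4 CPM in KO with itaconate replicate 3. Genes at 0 reads throughout included Cfd, the protease that activates factor B, Cfi, C6, C7 and the lectins Mbl1 and Mbl2. A count of 0 allows up to 3 reads, or 0.147 to 0.401 CPM by library, counting error alone.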

How the data were processed

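The authors deposited raw counts of reads for each gene, 1 column for each of the 9 libraries. Per the labels' protocols, polyadenylated RNA was bound to oligo-dT beads, copied with barcoded oligo-dT primers, pooled and amplified into strand-specific libraries, a design that places reads mostly near 3′ ends, and no molecular identifier is mentioned. The submitters' processing notes name STAR, HTSeq and the build mm10; tool versions and the annotation used are not given in the sources used here. A number in the description labels was read as the pool, which the labels do not define: WT replicates 1 to 3 and KO replicates 1 and 2 carry 1, KO replicate 3 and KO with itaconate replicate 1 carry 2, and KO with itaconate replicates 2 and 3 carry 3 and 4.

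Symbols were matched to 21745 of 22165 identifiers by Ensembl stem, and positions are those of GENCODE on GRCm38. The 5 summary lines of the counter stayed out. They held 23.1% to 33.7% of reads outside genes, 17.1% to 20% with several alignments and 0.275% to 0.441% ambiguous. All libraries entered 1 quasi-likelihood fit (edgeR 4.0.16, R 4.3.3; two-sided) with group as the term, TMM scaling, filterByExpr (minimum count 10) and Benjamini-Hochberg adjustment over 10781 genes. SE is the log2 fold change over the root of F. Log2 CPM used a prior count of 2. Simulated counts with known changes served to check the fit. DESeq2 1.42.0 was an alternative. Intervals at 95% from reads cover counting error only.

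The genes and lists were chosen with earlier results of these data known. The genes named are all 8 members, Acod1, the 8 other complement genes with the highest mean CPM and any past the threshold, and for Cfb, C3 and C1qa the 5 genes of highest r. Cd46, C1s1, C2, Hc and Masp1, and the genes at 0 reads, were named after their values were seen.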

Additional observations from a re-analysis of the deposited data

How the results depend on the processing

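The gene test was repeated under 7 other settings and without each of the 9 libraries in turn. Replicate numbers are shared between groups but not stated to pair samples, and same-numbered libraries deviated together with r between -0.16 and 0.24. With the replicate block 0 genes were called in each comparison, and the Cfb value for KO with itaconate against WT was -0.97. With no low-count filter, edgeR tested all of the 22165 gene rows except the 7229 at 0 reads in every library. Its calls were then 0 genes for KO against WT, 80 for KO with itaconate against KO and 92 for KO with itaconate against WT. In the second comparison 1 complement gene was called. DESeq2 called 1, 12 and 17. Leaving out the 4 libraries in which Acod1 contradicts the label, the counts were 2, 217 and 1, with 1 complement gene in each of the first 2 comparisons. The complement gene counted in these settings was Cfb, which was chosen by its spread, so these counts are no test of it. The lone WT library left held 1 Cfb read and is assumed to vary like the others. The KO libraries left were in pool 1 and the itaconate libraries in pools 2 and 3, so pool and itaconate cannot be told apart there. Leaving out single libraries gave 0 to 0, 0 to 6 and 0 to 4 genes, the 6 and the 4 without KO with itaconate replicate 1, and 0 complement genes in all 9 fits; the cause was not tested. RLE scaling, the pool as a term and pool 1 alone called 0 genes. Each fit with libraries left out applied the low-count filter anew, so its number of genes tested can differ from 10781.

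None of the other 7 genes was called under any setting, but some signs turned. Without the 4 libraries Cfp was 0.037 for KO with itaconate against KO, and against WT C3 was -0.36 and C1qc 0.098. With the pool as a term C3 was -0.54 and Cfp 0.21 for KO with itaconate against KO, and against WT C3 was -1.05, C1qa -0.0996 and C1qc 0.19. Over single libraries left out, C3 ranged from -0.49 to 0.11 for KO against WT, from -0.12 to 0.61 for KO with itaconate against KO and from -0.21 to 0.29 for KO with itaconate against WT. C3ar1 ranged from -0.25 to 0.020 for KO against WT and from -0.41 to 0.0014 for KO with itaconate against KO. For KO with itaconate against KO, C1qb ranged from -0.084 to 0.45, C1qc from -0.082 to 0.45 and Cfp from -0.26 to 0.077. Against WT, C1qb ranged from -0.51 to 0.036 and C1qc from -0.49 to 0.058. C1qa and C5ar1 each kept their sign in all 9 fits of each comparison. For KO with itaconate against KO, C1qa ranged from 0.57 to 0.91 and C5ar1 from 0.3 to 0.68. With the pool as a term the Cfb value for KO with itaconate against WT was 0.07. No pool holds libraries of both groups. That value, like those of C3, C1qa and C1qc against WT with the pool as a term, was linked through the KO libraries and the pair in pool 2. The Cfb ratio of the highest to the lowest library was 261 without TMM and 269 with RLE scaling.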

Other observations

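Further complement genes outside the named ones held few reads. C1s1 is the mouse gene of the C1s protease of the classical pathway. It had 5 to 21 reads in each library labelled WT or KO, and 4, 0 and 0 in those labelled KO with itaconate. The floor of 3 reads was 0.329 and 0.317 CPM in the libraries at 0, and C1s1 lay at 0.59 to 1.2 CPM in WT and KO. The edgeR log2 fold change for KO with itaconate against KO is not given, since it depends on the prior count.

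Cd46 lay at 1.95, 1.13 and 2.46 CPM in the libraries labelled KO and at 3.69, 2.52 and 5.6 CPM in those labelled KO with itaconate, at an edgeR adjusted p of 0.635. Hc, which encodes C5, and Masp1, a protease of the lectin pathway, each had 10 reads in KO with itaconate replicate 3 and 0 in the other 8 libraries.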
